A study of Homo sapiens with 38 samples.

Results

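The SR proteins are splicing factors that carry RNA recognition motifs and a tail rich in arginine and serine. The transcripts of 10 SR genes, SRSF1, SRSF2, SRSF3, SRSF4, SRSF5, SRSF6, SRSF7, SRSF9, SRSF10 and SRSF11, were examined here in nuclear and cytoplasmic RNA from HCT116 cells, a human colorectal carcinoma line. The members were every transcript of these genes in the RNA-seq tables that matched GENCODE release 44, which gave 106 of 195887 transcripts and 10 of 58425 genes. Of the 106 transcripts, 39 are annotated as protein_coding, 22 as nonsense_mediated_decay, 29 as retained_intron and 16 as protein-coding genes' transcripts without a defined coding sequence.

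RNA came from wild-type cells and from 4 gene-edited lines, which lacked AGO1, AGO2, AGO1 and AGO2 (AGO1/2), or AGO1, AGO2 and AGO3 (AGO1/2/3). AGO proteins bind microRNAs and carry out RNA interference. The 4 lines were made from HCT116 by CRISPR editing. Each genotype was 1 line, with 3 libraries in each of 10 groups (genotype by fraction) that differ in culture passage (27, 28 and 29 for wild type, and 6 to 14 for the knockout lines). Clone, passage and genotype therefore cannot be told apart. The series also lists 8 eCLIP samples, which were not analysed here.

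SR proteins bind exons and recruit the splicing machinery, and many of them regulate their own mRNA. A common way is a poison exon, a cassette exon that brings in an early stop codon, so that transcripts holding it become substrates of nonsense-mediated decay (NMD), the cytoplasmic pathway that removes mRNAs with premature stops. Transcripts that keep an intron are another class of SR gene product and are often held in the nucleus. The comparison with wild type asks whether these classes shift when the AGO proteins are lost.

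A poison exon was taken here as an annotated skipped exon carried by NMD transcripts and skipped by protein-coding transcripts of the same gene. There were 11 in 7 of the genes, and none in SRSF1, SRSF5 and SRSF10. In 9 of them the annotated stop codon of an NMD transcript lies inside the exon. In the other 2, the SRSF2 exon of 104 nt and the SRSF4 exon of 228 nt, it lies outside. The sequences below show the stretch up to the stop in the abundant NMD transcripts SRSF3-203, SRSF6-202 and SRSF7-208 and in both SRSF7 exons with the smallest adjusted p. Each run is the 5′ end of the exon or retained stretch in the direction of transcription, from hg38, with the annotated stop codon in capitals.
SRSF3-203, poison exon, chr6:36599821-36599854, plus strand: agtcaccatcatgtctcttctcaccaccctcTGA
SRSF6-202, poison exon, chr20:43459153-43459304, plus strand: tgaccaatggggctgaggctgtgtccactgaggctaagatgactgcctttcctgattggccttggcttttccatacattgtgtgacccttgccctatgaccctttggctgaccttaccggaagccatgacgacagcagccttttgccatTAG
SRSF7-203, first bases of the poison exon at chr2:38748898-38749173, minus strand: ggcagaaaatttgagacggTGA
SRSF7-204, poison exon, chr2:38749319-38749346, minus strand: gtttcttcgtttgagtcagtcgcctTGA
SRSF7-208, retained stretch, chr2:38749516-38749528, minus strand: gtatttatttTAA
The stop ends at base 34 of the SRSF3 exon (456 nt) and at base 152 of the SRSF6 exon (268 nt). In SRSF7-208, the most abundant NMD transcript of SRSF7, the stop ends 13 bases into intron sequence that the transcript keeps. Of the 11 poison exons, 6 have a length that is a multiple of 3, so that their length alone does not shift the frame.

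Nuclear libraries held 20431557 to 54097984 estimated reads and cytoplasmic libraries 39476205 to 79731793, and no wild-type library was above 26536692 in nuclear or 43281746 in cytoplasmic RNA. Every knockout library was deeper than wild type of its fraction. Epithelial genes were expressed (EPCAM 42.1 to 153 TPM, KRT8 294 to 1265 TPM), but VIL1 was at or below 0.0773 TPM, CDX2 ranged from 1.51 to 5.74 TPM and CDH1 from 0.681 to 29.8 TPM, and PTPRC, PECAM1 and ALB stayed at or below 0.414 TPM. These 3 genes with COL1A1 and DES, markers of other cell types, summed to 5.76 to 7.96 TPM in nuclear wild type and 9.21 to 10.5 TPM in the nuclear AGO1/2 line, and the summed epithelial markers had means of 1216 and 2682 TPM in these groups. In cytoplasmic RNA the epithelial sum went the other way, at 1236 TPM in wild type and 907 TPM in the AGO1/2 line. The part of these markers in the results was not tested. AGO1 was at a mean of 11.2 TPM in nuclear wild-type RNA and 3.78, 2.73 and 2.65 TPM in the AGO1, AGO1/2 and AGO1/2/3 lines, and AGO2 at 53 TPM and at 26.1 to 34.3 TPM in the lines that lack it, without overlap of libraries. AGO3 was at 14.7 TPM in the nuclear AGO1/2/3 line, but also at 14.6 to 15.0 TPM in the other 3 lines (20.5 TPM in wild type), and it overlapped wild type in the cytoplasm (8.64 TPM beside 8.39 TPM), so its RNA level did not mark the line that lacks it. The wild-type culture of passage 29 stood apart in both fractions. Its summed SR level was 1080 TPM in the nucleus, against 1445 and 1460 TPM at passages 27 and 28, and 761 TPM in the cytoplasm, against 1220 and 1155 TPM.

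The SR genes were abundant in both fractions of wild-type cells. On the TPM scale, which divides by transcript length and library total, SRSF1 was highest in the nucleus, at 236 ± 26.5 TPM (SD, n = 3). SRSF3 followed at 187 ± 50.6, SRSF2 at 159 ± 37.3 and SRSF5 at 155 ± 22.3 TPM, and the libraries of each neighbour in this order overlapped. SRSF4 was lowest at 41.2 ± 9.21 TPM in the nucleus and 30.3 ± 2.72 TPM in the cytoplasm, below every wild-type library of the other SR genes in its fraction. The cytoplasm was led by SRSF3 (228 ± 68.4 TPM), SRSF1 (182 ± 49.9 TPM) and SRSF9 (142 ± 14.7 TPM). In bulk RNA, fewer cells with a transcript and less of it in each cell cannot be told apart.

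**Figure D1:**
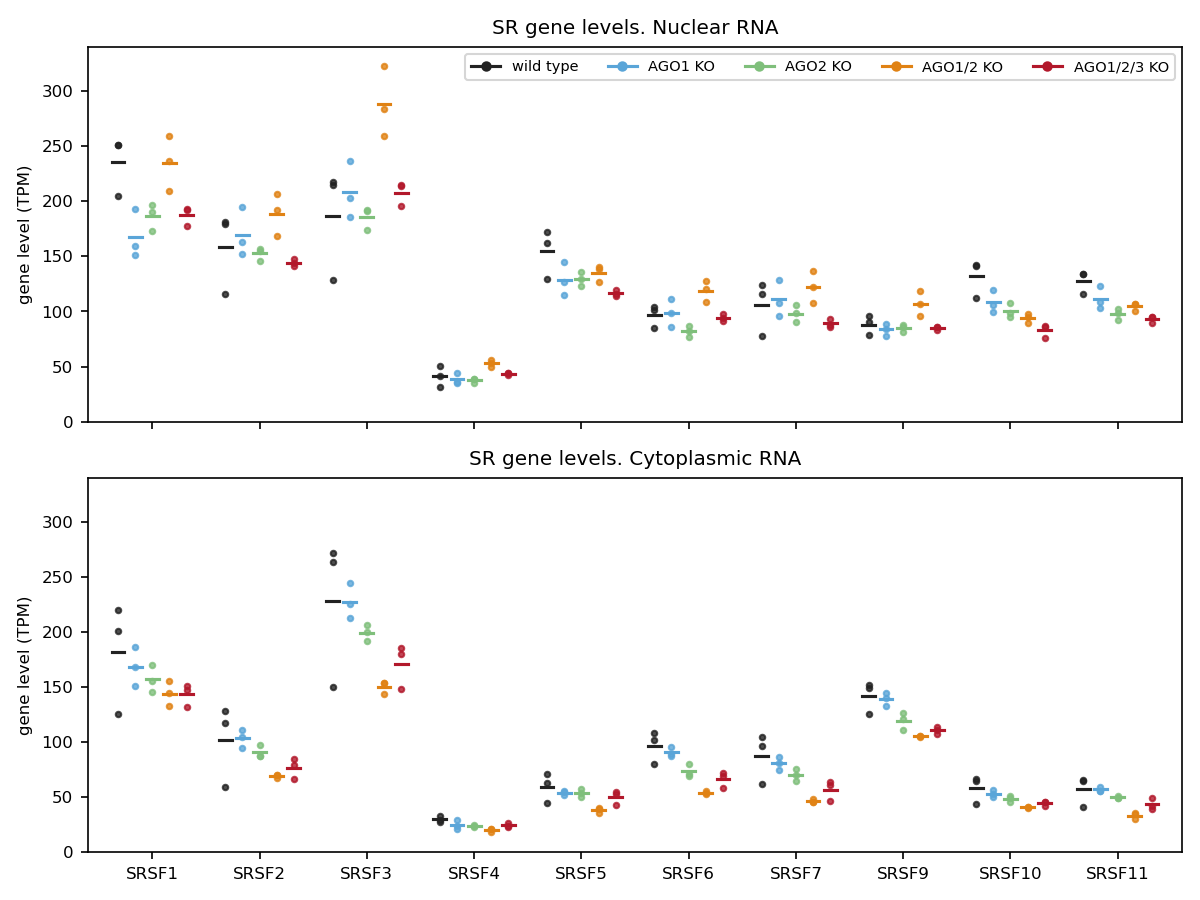
Levels of the 10 SR genes in TPM (linear axis) in nuclear RNA (top) and cytoplasmic RNA (bottom); points are libraries and short bars are means of 3. The spread of the wild-type points in SRSF2, SRSF3 and SRSF7 comes with the low culture of passage 29, and SRSF4 is lowest in both fractions.

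In wild-type cells, SR genes differed in how their RNA was divided between the fractions. Read counts scaled to the library (edgeR, adjusted p at most 0.05) were higher in nuclear RNA for SRSF5 (log2 difference 1.14 ± 0.09, SE), SRSF11 (0.73 ± 0.08), SRSF4 (0.72 ± 0.09) and SRSF10 (0.68 ± 0.09). They were lower in nuclear RNA for SRSF9 (-1.14 ± 0.06), SRSF6 (-0.51 ± 0.08) and SRSF3 (-0.40 ± 0.14). The SRSF6 difference vanished on the TPM scale (0.00208). These 7 calls of 10 genes stand against 76.8% of all 20104 genes called in this comparison, so most genes of the table were called as well. The SRSF3 call was lost with DESeq2 (adjusted p = 0.0579), with RLE factors, with the groups compared fitted alone, on the TPM scale, and without the wild-type cytoplasmic library of passage 27 or 28 or the nuclear one of passage 29. SRSF1, SRSF2 and SRSF7 showed log2 differences of -0.12, 0.16 and 0.03 and were not called.

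The split by transcript class was sharper. Summed over the 10 genes, retained-intron transcripts made up 24.2%, 24.5% and 23.8% of SR gene TPM in the nuclear wild-type libraries of passages 27, 28 and 29, and 10.2%, 10.9% and 9.24% in the cytoplasmic ones. Protein-coding transcripts made up 53.8%, 53.9% and 50.3% in the nucleus and 77.5%, 76.5% and 76.8% in the cytoplasm. No nuclear library overlapped a cytoplasmic one in either class. Within genes, the retained-intron share was tested with limma on log2 of the class over the rest of the gene, with 0.1 TPM added to each, and all 9 genes with such transcripts had a higher share in the nucleus (87.4% of genes were called). The SRSF4 call was lost without the wild-type library of passage 27 of either fraction (adjusted p = 0.0557 and 0.0683, limma). The median log2 difference was 4.14 for the SR genes and 2.79 over all genes tested. SRSF9 retained-intron transcripts, for example, were 28.2 ± 0.54% of the gene in the nucleus and 0.837 ± 0.155% in the cytoplasm. SRSF3 had the smallest log2 difference (0.91 ± 0.10), at 56.4 ± 1.55% against 40.7 ± 1.97%.

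**Figure D2:**
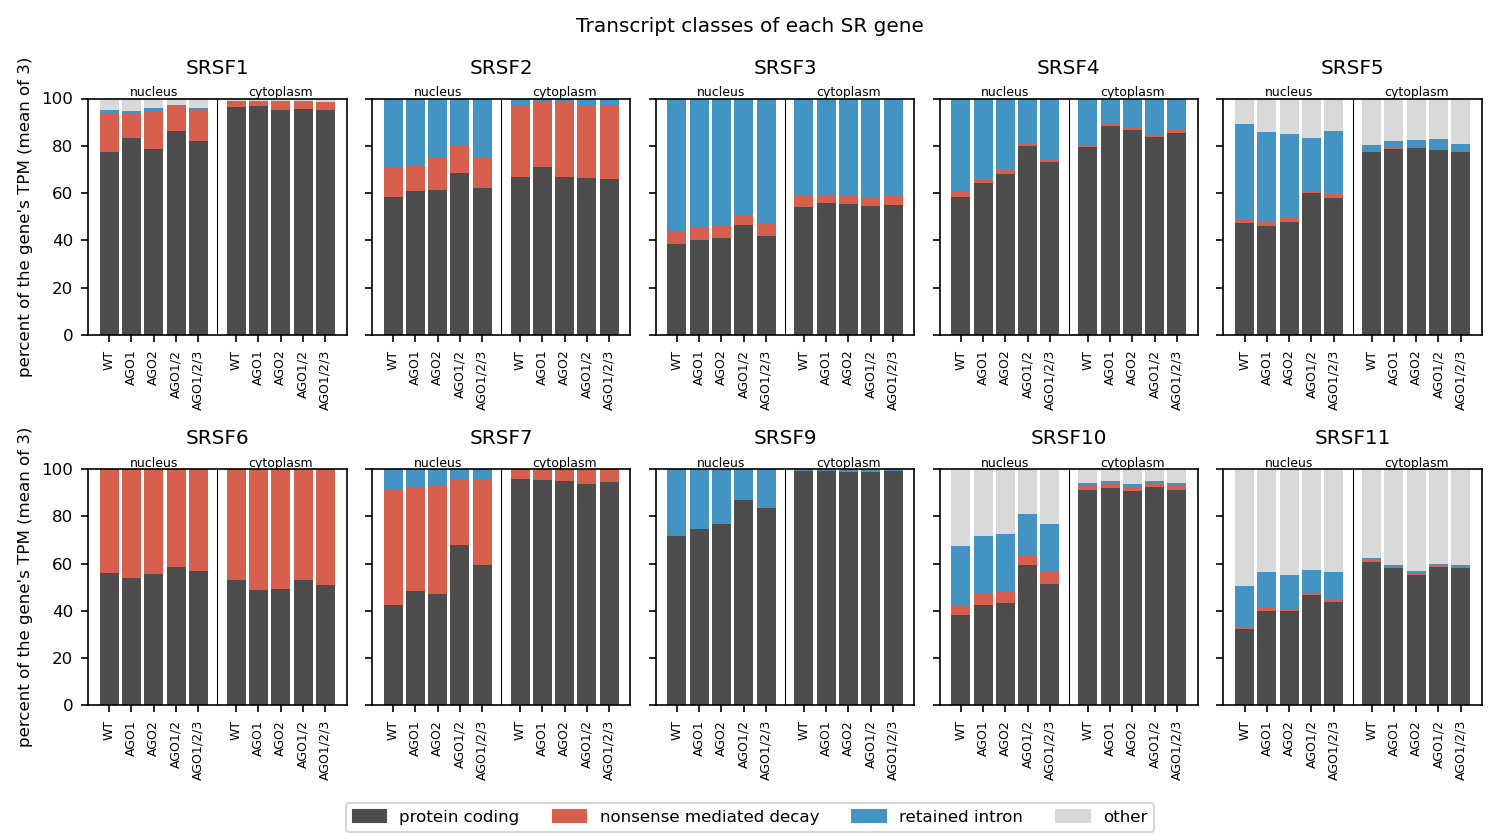
Percent of each gene's TPM held by each annotated transcript class (stacked bars, mean of 3 libraries) for the 5 genotypes in the nucleus (left of each panel) and the cytoplasm (right). Retained-intron shares are larger in the nucleus in every gene that has such transcripts, and in nuclear RNA the coding part is larger in the AGO1/2 line than in wild type for all 10 genes.

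The NMD transcripts did not share 1 pattern across the fractions. The NMD share was higher in the nucleus for SRSF7 (48.8 ± 2.91% against 4.12 ± 0.2% in the cytoplasm), SRSF1 (16.4 ± 3.44% against 2.35 ± 0.415%), SRSF10, SRSF4 and SRSF5, and lower for SRSF2 (12.6 ± 3.92% against 29.8 ± 5.01%), which made 6 calls of 10 genes beside 45.7% of all genes. SRSF6 carried a large poison product in both places, 44.1 ± 1.52% of the gene in the nucleus and 47.1 ± 1.7% in the cytoplasm, and was not called (adjusted p = 0.278, limma). SRSF3 had about the same NMD share in both (5 ± 2.09% and 4.97 ± 3.65%), with the library of passage 29 highest in each.

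Single transcripts showed the same split. Of the 25 retained-intron transcripts with a summed wild-type level of at least 2 TPM, 24 had more TPM in the nucleus, with a median nuclear to cytoplasmic ratio of 24.7. Of 12 such NMD transcripts 9 were higher in the nucleus (median ratio 2.32), and of 31 protein-coding ones 16 were (median ratio 1.002). A transcript could pass the level of 2 TPM through a single fraction, so these counts describe only the transcripts that passed. On the log2(TPM + 0.1) scale the median of all genes was also higher in the nucleus, by 0.58. SRSF7-208 was at 48.8, 52.2 and 35.9 TPM in the nuclear wild-type libraries and at 3.11, 2.75 and 1.24 TPM in the cytoplasmic ones. SRSF6-202 was at 46.7, 42.8 and 38.2 TPM and at 50.7, 49.9 and 36.7 TPM. The exception among the retained-intron transcripts was SRSF3-206, at 54.9 TPM in the nucleus and 86.5 TPM in the cytoplasm. Over the 37 retained-intron and NMD transcripts, the ratio and the share of a transcript's bases that lie in exons of protein-coding transcripts had Pearson's r of -0.335 and Spearman's rho of -0.313, as a description, since these transcripts share genes and libraries.

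**Figure D3:**
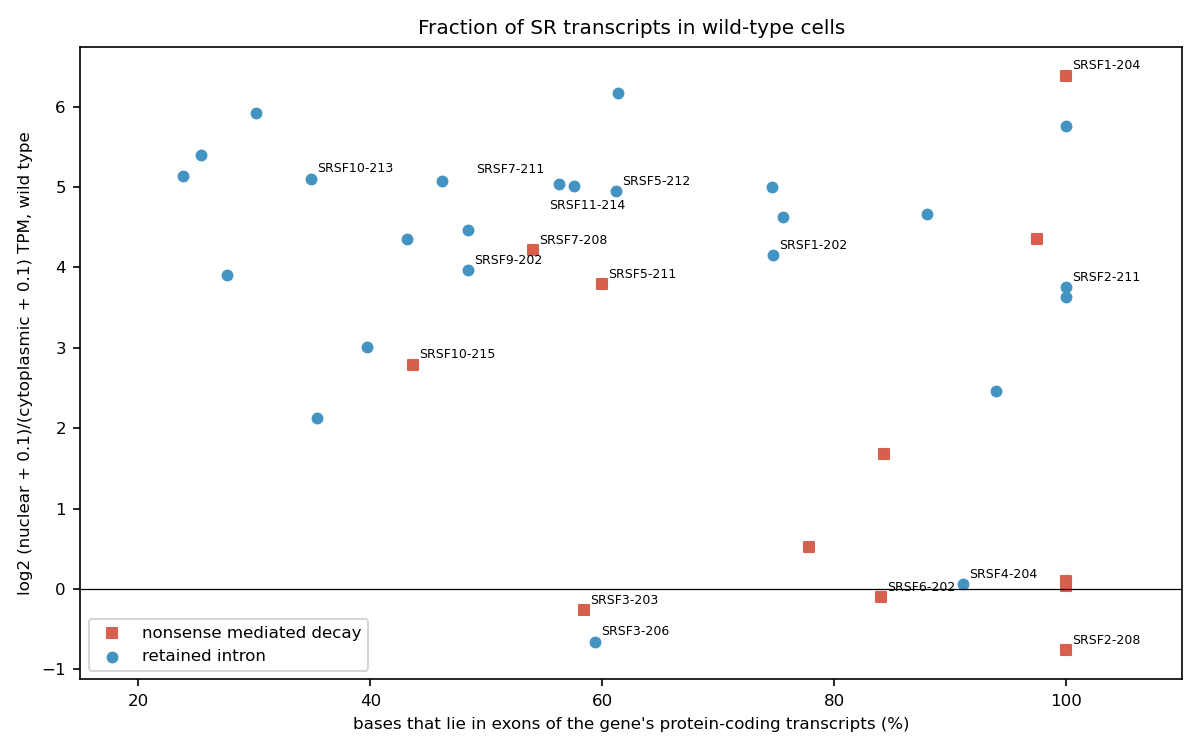
Log2 ratio of nuclear to cytoplasmic TPM in wild type (0.1 TPM added) against the percent of a transcript's bases in exons of the gene's protein-coding transcripts, for the 37 NMD (squares) and retained-intron (circles) transcripts. Most circles lie above 4 on the vertical axis, and SRSF3-203, SRSF3-206, SRSF6-202 and SRSF2-208 lie below 0.

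In nuclear RNA of the AGO1/2 and AGO1/2/3 lines, retained-intron transcripts made up less of the SR gene RNA and coding transcripts more. The retained-intron share of all SR genes together was 17.8%, 17.7% and 19.7% in the AGO1/2 line and 21.1%, 20.6% and 20.3% in the AGO1/2/3 line, below each wild-type library. It was 22.1%, 23.2% and 23.1% in the AGO2 line, also below wild type, and 24.2%, 23.8% and 24.9% in the AGO1 line, which overlapped it. The coding share was 52.7 ± 2.03% in wild type and 64.9 ± 1.95% and 60.4 ± 1.57% in the AGO1/2 and AGO1/2/3 lines, with no overlap. It was 54.8% to 56.1% in the AGO2 line, also above wild type, and 53.8% to 55.2% in the AGO1 line, which overlapped it. Over all genes, coding transcripts went from 26.9 ± 2.15% of nuclear TPM in wild type to 36.2 ± 2.21% and 30.3 ± 0.333% in the AGO1/2 and AGO1/2/3 lines, also without overlap. In nuclear RNA of the same 2 lines the summed epithelial markers were also higher, at 2682 and 2174 TPM against 1216 TPM in wild type. The libraries again did not overlap. In the cytoplasm this sum was lower in the AGO1/2 line, at 907 TPM against 1236 TPM in wild type, without overlap. The AGO1/2/3 line overlapped wild type there, at 1209 TPM. The part of these markers in the shares was not tested.

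By gene, the retained-intron share fell in 8 of 9 genes in the AGO1/2 line, and in 6 of 9 in the AGO1/2/3 line (limma, adjusted p at most 0.05). Of all 7050 genes tested, 66.6% and 54.4% were called, and the difference between the SR genes and the rest was not tested. The members' median log2 change was -0.92 in the AGO1/2 line and -0.60 in the AGO1/2/3 line, beside -0.96 and -0.70 over all genes. The AGO1 and AGO2 lines had 0 of 9 calls, with 0 and 3 members at an unadjusted p under 0.05, beside 1.12% and 16.4% of all genes called.

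SRSF5, which has 8 retained-intron transcripts, had the smallest adjusted p. Its retained-intron share was 41.1%, 38.5% and 42.1% in wild type, 20.9%, 21.6% and 24.8% in the AGO1/2 line and 27.9%, 27.4% and 25% in the AGO1/2/3 line. Neither line overlapped wild type, and the log2 ratio fell by 1.24 ± 0.12 (SE, adjusted p = 4.7e-06, limma) and by 0.90 ± 0.12 (adjusted p = 1.1e-04).

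SRSF9, which encodes a small SR protein, moved by the same order. The share was 27.6%, 28.1% and 28.7% in wild type, 13.8%, 10.5% and 15.1% in the AGO1/2 line and 18.5%, 16.5% and 14.8% in the AGO1/2/3 line, again with no overlap. The log2 ratio fell by 1.39 ± 0.16 and 0.98 ± 0.16.

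SRSF4 varied more between libraries. Its share was 46.9%, 34% and 37.7% in wild type, 11.5%, 18.8% and 26.3% in the AGO1/2 line and 27.1%, 26.8% and 22.8% in the AGO1/2/3 line. The groups did not overlap, but the AGO1/2/3 call (log2 change -0.92 ± 0.31, adjusted p = 0.023, limma) was lost without the AGO1/2/3 library of passage 14 or the wild-type library of passage 27.

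The genes of lower retained-intron content followed. In SRSF10, whose product acts as a splicing repressor when dephosphorylated, the share went from 24.9 ± 1.06% to 17 ± 0.712% (AGO1/2) and 20.5 ± 0.845% (AGO1/2/3). In SRSF11 it went from 17.2 ± 1.81% to 9.86 ± 0.872% and 12 ± 0.998%, and in SRSF7 from 8.52 ± 0.315% to 4.13 ± 0.779% and 4.66 ± 0.97%. All of these were called in both lines. SRSF2 and SRSF3 were called in the AGO1/2 line only, where the share went from 29 ± 2.02% to 19.5 ± 2.61% and from 56.4 ± 1.55% to 49.1 ± 0.484%. In the AGO1/2/3 line they were at 25.2% (adjusted p = 0.123, limma) and 52.8% (adjusted p = 0.077, limma), and the difference between these lines was not tested. SRSF1, a prototype of the family, had only 1.12 ± 0.476% in wild type and was called in no line.

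**Figure D4:**
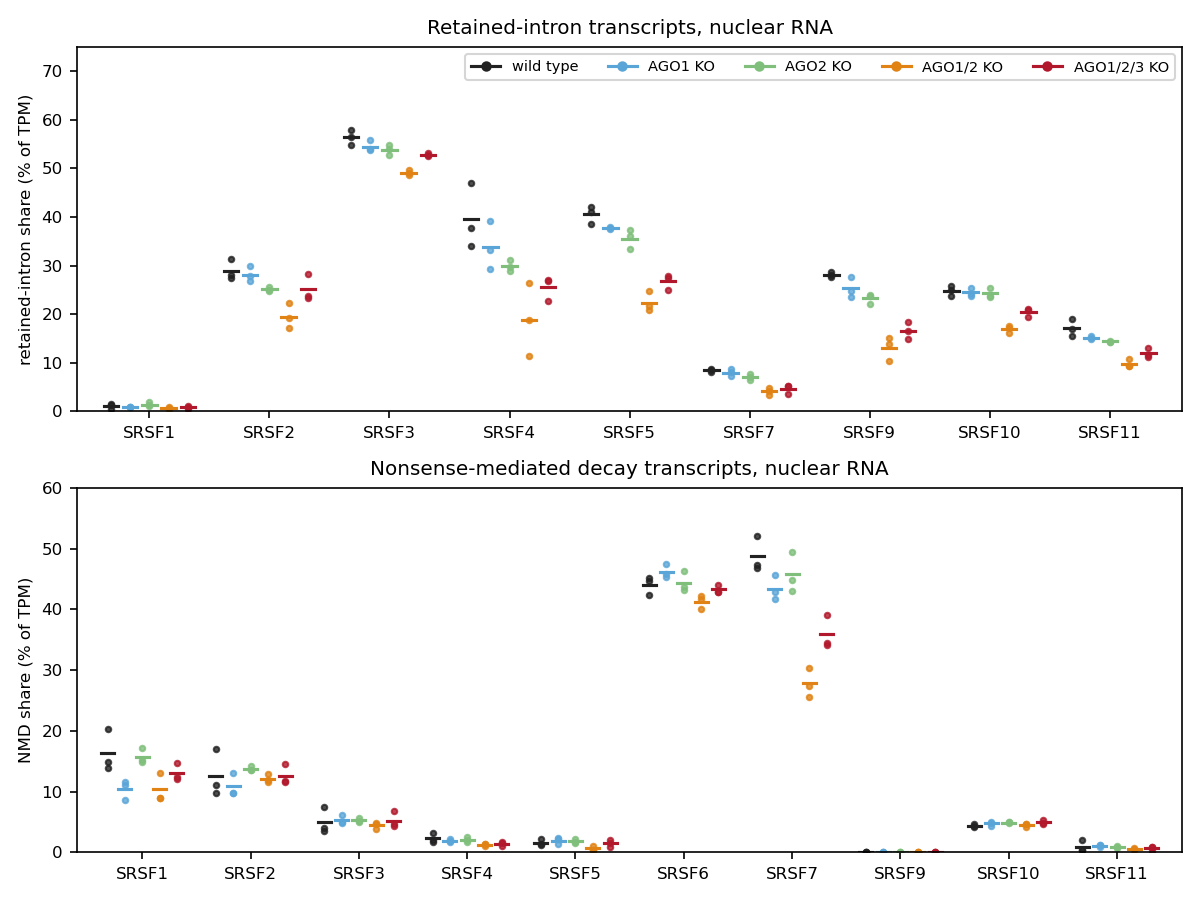
Share of each SR gene's nuclear TPM in retained-intron transcripts (top, 9 genes) and NMD transcripts (bottom, 10 genes) per library, as points with a bar at the mean of 3. Retained-intron points of the AGO1/2 line lie below wild type in every gene but SRSF1, and the NMD share moves most in SRSF7.

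Fraction markers moved with this result. MALAT1, NEAT1 and KCNQ1OT1, RNAs kept in the nucleus, summed to a mean of 3170 TPM in nuclear wild-type RNA (2791 to 3667 TPM). The means were 1871 TPM in the AGO1 line and 1889 TPM in the AGO2 line. They were 1369 TPM in the AGO1/2 line (1283 to 1496 TPM) and 1426 TPM in the AGO1/2/3 line (1260 to 1561 TPM). As a percentage, of a total smaller than the 1000000 TPM of a library, the wild-type mean was 0.367%. GAPDH and RPLP0 with the mitochondrial RNAs MT-CO1 and MT-ND1 were followed as 1 list of cytoplasmic markers. Its percentage, of the same kind, rose from 0.290% in nuclear wild type to 0.423% and 0.362% in the AGO1/2 and AGO1/2/3 lines. All knockout libraries of these lines lay outside the wild-type range for both lists. GAPDH did not separate the fractions over all libraries, at 1067 to 2773 TPM in nuclear and 1296.4 to 2096.5 TPM in cytoplasmic RNA. RPLP0 did, at 443 to 630 TPM and 1247 to 1482 TPM. The part of single genes in the rise of the list was not tested. Over all genes, retained-intron transcripts fell from 5.87 ± 0.515% of nuclear TPM to 3.71 ± 0.0523% and 3.70 ± 0.262%. The part of the purity of the fractions in the SR result was not tested.

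The change was visible in single transcripts. In nuclear RNA 94 of the 106 transcripts passed the filter on low counts, and edgeR called 56 of them in the AGO1/2 line and 42 in the AGO1/2/3 line, beside 37.4% and 28.4% of all 76728 transcripts. It called 10 in each of the AGO1 and AGO2 lines, beside 6.68% and 13% of all. In the AGO1/2 line 17 of 34 protein-coding SR transcripts rose and 3 fell, while 3 of 27 retained-intron transcripts rose and 16 fell. Of all coding transcripts 30.3% rose and 10.3% fell there, and of all retained-intron transcripts 2.86% rose and 35.3% fell. The AGO1/2/3 line gave 13 up and 2 down among the coding SR transcripts, and 2 up and 13 down among the retained-intron ones. The shares of all transcripts in that line were 24.9% up and 8.20% down (coding) and 2.59% up and 23.9% down (retained intron). Over all genes the same classes went the same way, with medians of 0.40 (coding) and -0.65 (retained intron) on the log2 scale in the AGO1/2 line, beside 0.55 and -0.62 for the SR transcripts.

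For each gene the most abundant transcript of each class is named here. SRSF5-217, which encodes SRSF5, was at 22.7, 21.6 and 16.2 TPM in nuclear wild-type RNA, at 43, 44.7 and 38.2 TPM in the AGO1/2 line and at 31.7, 30.4 and 32.5 TPM in the AGO1/2/3 line. Its log2 change was 1.29 ± 0.11 (SE, adjusted p = 2.3e-06, edgeR) and 1.03 ± 0.11. The retained-intron transcript SRSF5-212 went the other way, from 29.3, 26.9 and 26.8 TPM to 13.3, 12.7 and 13.7 TPM and to 14, 13.8 and 13.3 TPM, with no overlap.

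Coding transcripts of 7 further genes rose in both lines, with values in the AGO1/2 line of 1.47 ± 0.24 for SRSF11-203, 1.28 ± 0.22 for SRSF2-202, 1.19 ± 0.19 for SRSF3-208, 1.17 ± 0.18 for SRSF7-202, 1.09 ± 0.08 for SRSF4-201, 0.86 ± 0.07 for SRSF9-201 and 0.60 ± 0.07 for SRSF6-201. In the AGO1/2/3 line the rise of SRSF6-201 turned to -0.0108 on the log2(TPM + 1) scale, and those of SRSF2-202, SRSF3-208, SRSF7-202 and SRSF9-201 were no longer called there. SRSF1-201 rose in the AGO1/2 line (0.51 ± 0.11), a call that the TPM scale did not keep, and was at 0.21 ± 0.11 in the AGO1/2/3 line (adjusted p = 0.177, edgeR), and these lines were not tested against each other. SRSF10-203 was called in no line in nuclear RNA. SRSF4-201, SRSF5-217 and SRSF9-201 were also called higher in the AGO1 and AGO2 lines, by 0.29 to 0.48, and all of these calls were lost on the TPM scale.

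Several retained-intron transcripts of these genes fell. SRSF10-213 went from 29, 27.8 and 23.8 TPM to 14.2, 13.7 and 13.5 TPM in the AGO1/2 line and to 15.6, 14.6 and 13.6 TPM in the AGO1/2/3 line, log2 changes of -0.73 ± 0.05 and -0.50 ± 0.05. SRSF11-214 fell by 0.86 ± 0.08 and 0.60 ± 0.08, SRSF7-211 by 0.64 ± 0.17 and 0.73 ± 0.18, and SRSF9-202 by 0.57 ± 0.13 and 0.42 ± 0.13. Among the retained-intron transcripts named here SRSF3-206 was again the exception. It rose by 1.15 ± 0.18 and 0.83 ± 0.18, as did the coding transcript of its gene, though the TPM scale did not keep the second call. Of all 27 SR retained-intron transcripts tested, 3 rose in the AGO1/2 line and 2 in the AGO1/2/3 line.

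**Figure D5:**
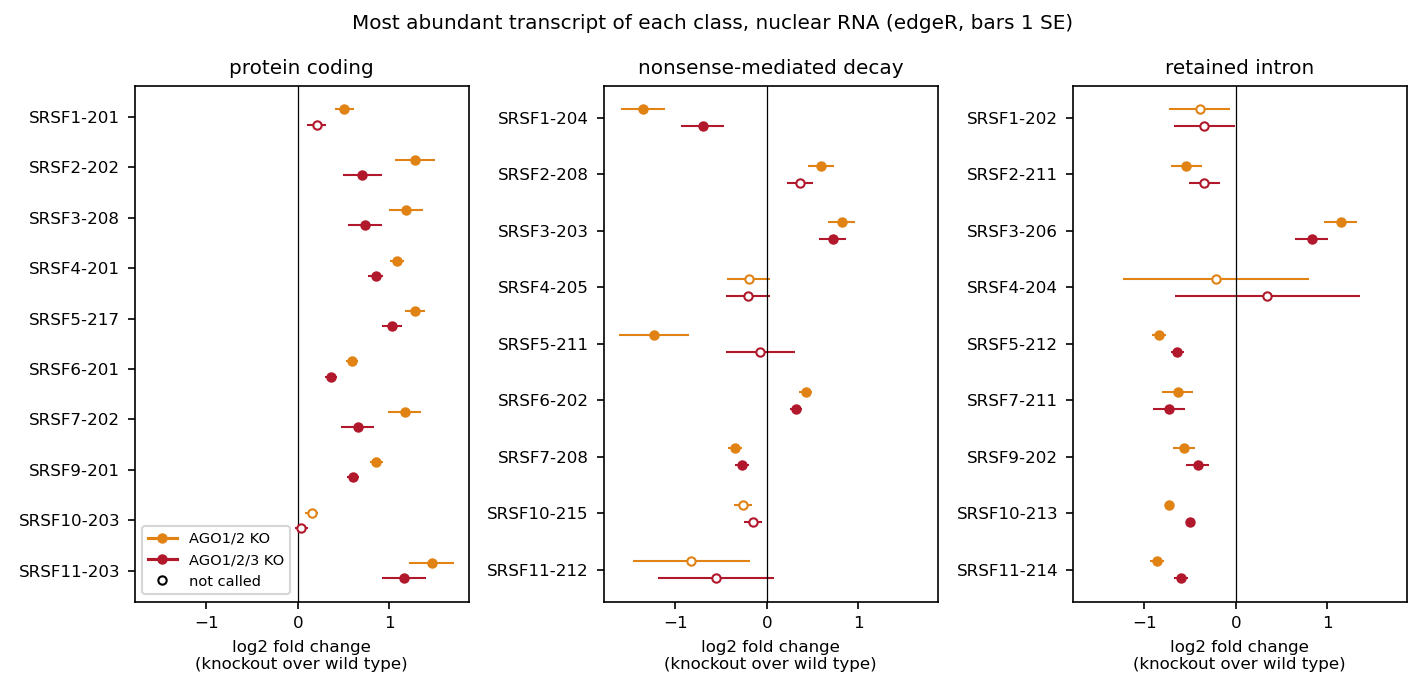
Log2 fold change (edgeR, bars 1 SE) in nuclear RNA of the AGO1/2 and AGO1/2/3 lines for the most abundant transcript of each class in each gene; open symbols were not called. Coding transcripts lie right of 0, most retained-intron transcripts lie left of it, with SRSF3-206 and, in the AGO1/2/3 line, the uncalled SRSF4-204 to the right, and NMD transcripts lie on both sides.

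The NMD transcripts did not move together, and not all of them hold a poison exon. SRSF2-208 skips the exon of 104 nt in its gene. SRSF7-208 has its stop in kept intron sequence, and SRSF1 has no poison exon. Of 18 SR NMD transcripts tested in nuclear RNA, 4 rose and 5 fell in the AGO1/2 line and 3 rose and 4 fell in the AGO1/2/3 line. Over all 5891 NMD transcripts, 10.5% rose and 11.3% fell in the AGO1/2 line, and 7.66% and 7.91% in the AGO1/2/3 line. The median log2 change of the SR transcripts was -0.23 and -0.11, beside -0.05 and -0.04 over all NMD transcripts. The difference between them was not tested.

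SRSF3-203, the poison-exon transcript of SRSF3, was at 6.96, 6.88 and 8.24 TPM in wild type and at 11.6, 10.8 and 11.4 TPM in the AGO1/2 line, without overlap. It was called higher in all 4 lines, with log2 changes of 0.67 (AGO1), 0.49 (AGO2), 0.82 (AGO1/2) and 0.72 (AGO1/2/3). The TPM scale kept only the call in the AGO1/2 line. Since the coding transcripts rose as well, the share of the gene in NMD transcripts was 5 ± 2.09% in wild type and 4.46 ± 0.562% in the AGO1/2 line.

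SRSF6-202 rose with its coding partner, by 0.43 ± 0.07 in the AGO1/2 line (50.6, 51 and 45.4 TPM, beside 46.7, 42.8 and 38.2 TPM in wild type, which overlap), and the TPM scale did not keep the call. In the AGO1/2/3 line the log2 change of 0.32 ± 0.07 turned to -0.0551 on the log2(TPM + 1) scale. The share of SRSF6 in the poison product stayed between 40% and 47.5% in every nuclear library. SRSF2-208 rose by 0.60 ± 0.14 in the AGO1/2 line, a call that the TPM scale did not keep. Its log2 changes of 0.23, 0.30 and 0.36 in the AGO1, AGO2 and AGO1/2/3 lines were not called, and the lines were not tested against each other.

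SRSF7 differed from these. SRSF7-208 was at 48.8, 52.2 and 35.9 TPM in wild type, 30.4, 31.6 and 29.4 TPM in the AGO1/2 line and 30.9, 29.1 and 26.8 TPM in the AGO1/2/3 line, so that each knockout library was below wild type. The log2 changes were -0.35 ± 0.08 and -0.27 ± 0.08 on the count scale, and the second was lost without the AGO1/2/3 library of passage 14 or the wild-type library of passage 27 or 28. Its coding transcript SRSF7-202 rose in the same lines. The NMD share of SRSF7 therefore went from 47.4%, 46.9% and 52.2% in wild type to 27.5%, 25.6% and 30.4% in the AGO1/2 line and 39.1%, 34.5% and 34.1% in the AGO1/2/3 line, with log2 ratios of -1.31 ± 0.15 (adjusted p = 1.3e-04, limma) and -0.77 ± 0.15 (adjusted p = 0.0073).

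SRSF1-204 is an NMD transcript made only of sequence that coding transcripts of SRSF1 also contain. It was at 21, 24.4 and 34.1 TPM in wild type, 7.75, 5.73 and 7.24 TPM in the AGO1 line, 7.8, 6.96 and 12.1 TPM in the AGO1/2 line and 14, 12.5 and 11.8 TPM in the AGO1/2/3 line. In the AGO2 line it was at 17.4, 17.6 and 18.7 TPM, with a log2 change of -0.26 ± 0.24 that was not called. All of these knockout libraries lay below wild type. In the other 3 lines the log2 changes were -1.70 ± 0.24, -1.36 ± 0.24 and -0.70 ± 0.24, and the last was lost without the wild-type library of passage 29 (adjusted p = 0.206, edgeR), without any of 11 other libraries, with RLE factors, without the low-count filter and with the groups compared fitted alone. The NMD share of SRSF1 was called in the AGO1/2 line, at 9.03%, 9.02% and 13.1% beside 14%, 14.9% and 20.3% in wild type (log2 change -0.76 ± 0.23), and lost that call without the wild-type library of passage 28 or 29, the AGO1/2 library of passage 9 or 10, or the AGO2 library of passage 9. The AGO1 line had nearly the same log2 change (-0.74 ± 0.23) without a call (adjusted p = 0.198, limma), the AGO2 line was at -0.05 ± 0.23 and the AGO1/2/3 line at -0.37 ± 0.23, and the lines were not tested against each other.

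For the NMD share as a whole, these were 2 calls of 10 genes in the AGO1/2 line and 1 (SRSF7) in the AGO1/2/3 line, beside 16% and 10.5% of all 5039 genes. With the groups compared fitted alone, 1 of these 3 calls was kept, so the SRSF7 calls of the AGO1/2 and AGO1/2/3 lines were not both kept. In the AGO1 and AGO2 lines limma called 0 of 10, with 1 and 0 genes at an unadjusted p under 0.05, beside 0.238% and 0.933% of all genes.

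Inclusion of the 11 poison exons was measured as the TPM of transcripts that hold the exon over that of transcripts that hold or skip it. At an adjusted p of 0.05 and a change of 10 percentage points, limma called 0 of 11 in each of the 4 lines in nuclear RNA, with 0 (AGO1), 0 (AGO2), 5 (AGO1/2) and 4 (AGO1/2/3) at an unadjusted p under 0.05. In the same order, over all 21744 skipped exons, 0.0828%, 0.455%, 4.73% and 2.92% were called. Most of the 11 exons had a nuclear wild-type mean below 10%, so a fall could not reach the threshold in them. The 0 calls therefore do not show that their inclusion was unchanged. By adjusted p alone 3 (AGO1/2) and 2 (AGO1/2/3) of the 11 passed.

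The exons with an adjusted p below 0.05 but a smaller change lay in SRSF7 and SRSF4. The SRSF7 exon at chr2:38748898-38749173 (276 nt) was included at 3.53%, 4.25% and 3.56% in wild type, 1.08%, 0.863% and 1.17% in the AGO1/2 line and 1.59%, 1.6% and 1.1% in the AGO1/2/3 line (adjusted p = 2.0e-04 and 0.0023, limma). A longer form that starts at the same coordinate and ends at 38749346 (449 nt) was at 7.89 ± 2.27%, 2.58 ± 0.776% and 3.81 ± 0.56%. Neither SRSF7 exon overlapped wild type in these lines. The SRSF4 exon at chr1:29159864-29160091 (228 nt), which does not hold the annotated stop, was at 3.2 ± 1.16% in wild type and 1.46 ± 0.161% in the AGO1/2 line.

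The other poison exons did not reach an adjusted p of 0.05. The SRSF6 exon was at 44.1 ± 1.52% in wild type, 46.2 ± 1.15% in the AGO1 line, 44.4 ± 1.66% in the AGO2 line, 41.3 ± 1.13% in the AGO1/2 line and 43.3 ± 0.67% in the AGO1/2/3 line. The AGO1 libraries all lay above wild type and the AGO1/2 libraries all below it, while those of the other two lines overlapped it. The SRSF3 exon of 456 nt was at 10.1 ± 4.76%, 7.83 ± 1.13% and 9.87 ± 2.51%. The SRSF2 exon of 104 nt, which does not hold it either, was at 12.6%, 13.5% and 27.3% in wild type and at 9.75%, 8.55% and 10.9% in the AGO1/2 line, where the highest wild-type value is that of passage 29. An SRSF3 exon of 98 nt, both SRSF11 exons, the SRSF9 exon and the SRSF7 exon of 69 nt had means of at most 2.2% in nuclear wild type.

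Gene levels in nuclear RNA moved by small amounts. Of 10 genes edgeR called 5 in the AGO1 line, 1 in the AGO2 line, 7 in the AGO1/2 line and 5 in the AGO1/2/3 line, beside 29.9%, 40.2%, 67.6% and 58.6% of all 18919 genes. The difference between the SR genes and all genes was not tested.

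SRSF10, SRSF11 and SRSF5 fell in the AGO1/2 line (log2 -0.40 ± 0.06, -0.26 ± 0.05 and -0.30 ± 0.05) and in the AGO1/2/3 line (-0.38 ± 0.06, -0.23 ± 0.05 and -0.28 ± 0.05). SRSF10 was at 142, 141 and 112 TPM in wild type and at 94.6, 98.2 and 89.5 TPM in the AGO1/2 line, without overlap. With counts scaled by transcript length the SRSF5 changes were -0.07 and -0.12 and no longer called, and the TPM scale did not keep the first either.

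In the AGO1/2 line SRSF3 (0.43 ± 0.10), SRSF6 (0.35 ± 0.06), SRSF9 (0.29 ± 0.05) and SRSF2 (0.27 ± 0.10, not kept on the TPM scale) rose. SRSF3 was at 215, 217 and 129 TPM in wild type and 284, 322 and 260 TPM in this line, above each wild-type library. In the AGO1/2/3 line SRSF6 (0.19 ± 0.06) and SRSF9 (0.16 ± 0.05) were called higher, but on the log2(TPM + 1) scale both turned to -0.03 and -0.04. SRSF9 was called higher in the AGO1 line (0.17 ± 0.05) and the AGO2 line (0.21 ± 0.05) too, and there turned to -0.07 and -0.05 on the TPM scale. In the AGO1 line SRSF2 (0.31 ± 0.10), SRSF3 (0.31 ± 0.10) and SRSF6 (0.23 ± 0.06) were also called higher, which the TPM scale did not keep, while SRSF1 was lower (-0.26 ± 0.06). In that line the SRSF2 and SRSF3 calls were lost without the AGO1 library of passage 6 or 7, the SRSF6 call without that of passage 6 and the SRSF9 call without that of passage 7 or 8. The SRSF2 call in the AGO1/2 line was lost without its library of passage 10, and the SRSF6 call in the AGO1/2/3 line without its library of passage 14. SRSF1 was at 251, 251 and 205 TPM in wild type and 193, 160 and 151 TPM in the AGO1 line, without overlap.

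In the cytoplasm the SR genes showed few changes. EdgeR called SRSF7 (-0.44 ± 0.13), SRSF11 (-0.41 ± 0.10) and SRSF6 (-0.41 ± 0.09) lower in the AGO1/2 line, and SRSF6 (-0.31 ± 0.09) in the AGO1/2/3 line, beside 49.2% and 38.7% of all 17605 genes. In the AGO1 and AGO2 lines 0 of 10 were called, with 0 and 1 at an unadjusted p under 0.05, beside 12.4% and 16.1% of all genes. SRSF6 was at 108, 102 and 80.6 TPM in cytoplasmic wild type and at 56.1, 54.1 and 52.9 TPM in the AGO1/2 line, without overlap. The SRSF7 call was lost without the wild-type library of passage 27 (adjusted p = 0.0549, edgeR), and the SRSF6 call in the AGO1/2/3 line without that library or the AGO1/2/3 library of passage 14. The number of calls changed with 1 culture: 4 over the 4 lines with all libraries, 14 without the wild-type library of passage 29 and 2 without that of passage 27.

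Transcript classes differed little there. The summed retained-intron share of SR genes was 10.1 ± 0.857% in wild type and between 10.1% and 10.3% in the 4 lines, and the coding share was 76.9 ± 0.512% and between 76.2% and 77.8%. Of 84 transcripts tested, 8 were called in the AGO1/2 line (16.4% of all 67275), 1 in the AGO1/2/3 line (10.5%) and 0 in the AGO1 and AGO2 lines (1.61% and 2.47%), with 2 and 11 of those at an unadjusted p under 0.05 by edgeR. By DESeq2, 22 were called over the 4 lines together. SRSF6-201 and SRSF6-202 both fell by 0.45 in the AGO1/2 line. The SRSF6-202 call was lost without the AGO1/2 library of passage 10 or 11 or the wild-type library of passage 27 or 28.

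The cytoplasmic NMD share was called in 0 of 10 genes in each line (limma), with 0, 1, 2 and 1 genes at an unadjusted p under 0.05 by line in the order AGO1, AGO2, AGO1/2 and then AGO1/2/3, beside 1.16%, 1.1%, 11.2% and 4.35% of all 4732 genes. SRSF7 came closest, from 3.89%, 4.2% and 4.27% in wild type to 5.91%, 6.28% and 5.67% in the AGO1/2 line, which do not overlap (adjusted p = 0.065, limma). The retained-intron share was called higher in 2 of 9 genes in the AGO1/2 line, SRSF5 (2.66 ± 0.446% to 4.45 ± 1.15%) and SRSF7 (0.208 ± 0.0536% to 0.523 ± 0.129%), beside 15.7% of all genes. The count was 0 or 1 after 14 of the 15 omissions of a cytoplasmic library, the exception being the AGO1/2/3 library of passage 14. It was 0 of 9 in the AGO1, AGO2 and AGO1/2/3 lines, with 2, 2 and 0 genes at an unadjusted p under 0.05, beside 1.16%, 1.5% and 5.06%. Poison exons gave 0 calls of 11 in each line, with 0, 0, 1 and 0 at an unadjusted p under 0.05, beside 0.121%, 0.231%, 1.58% and 0.713% of all 19904 skipped exons. Most of these exons had a cytoplasmic wild-type mean below 10%, so a fall could not reach the threshold of 10 points in them.

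The AGO1/2/3 line was also compared between the fractions, as the log2 effect in the nucleus minus that in the cytoplasm. The retained-intron share differed for SRSF7 (-1.35 ± 0.42), SRSF5 (-1.25 ± 0.26) and SRSF9 (-1.17 ± 0.27), 3 of 9 genes beside 40.8% of all, and the SRSF7 call was lost with a pseudocount of 0.01 TPM or with estimated reads. The NMD share was called for SRSF7 (-1.12 ± 0.23), 1 of 10 genes beside 5.16%, while SRSF1 (-0.89 ± 0.31, adjusted p = 0.1) and SRSF4 (-0.89 ± 0.33, adjusted p = 0.129, limma) missed the threshold. This SRSF7 call of the NMD share was lost with the groups compared fitted alone. Gene levels differed for SRSF6 (0.42 ± 0.11) and SRSF5 (-0.39 ± 0.12), beside 22.7%, and the SRSF5 call was lost on the TPM scale, without the low-count filter, with the groups compared fitted alone, and without the cytoplasmic AGO1/2/3 library of passage 11 or 12, the cytoplasmic wild-type one of passage 29 or the nuclear wild-type one of passage 28. SRSF6 was called higher in the nucleus, where the TPM scale turns its sign, and lower in the cytoplasm, while SRSF5 fell in the nucleus and was at 0.04 ± 0.11 in the cytoplasm.

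Genes that act with SR proteins were followed as a list of 18 kinases, import factors and relatives, of which 17 were tested. In nuclear RNA 6 rose and 1 fell in the AGO1 line, 2 and 4 in the AGO2 line, 4 and 7 in the AGO1/2 line, and 2 and 6 in the AGO1/2/3 line. In the same order 29.9%, 40.2%, 67.6% and 58.6% of all genes were called. The difference between the list and all genes was not tested. The 4 with the smallest adjusted p in the AGO1/2/3 line were TRA2B (-0.45 ± 0.06) and SREK1 (-0.44 ± 0.06), both relatives of SR proteins, CLK4 (-0.43 ± 0.07), a kinase of SR proteins, and SRSF8 (0.36 ± 0.07). The retained-intron share fell in 12 and 9 of 14 genes of the list in the AGO1/2 and AGO1/2/3 lines, beside 66.6% and 54.4% of all genes called. The medians were -0.70 and -0.52, beside -0.96 and -0.70 over all genes. In the cytoplasm 0 gene levels of the list rose and 9 fell in the AGO1/2 line, beside 49.2% of all genes called.

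Of 10 NMD factors, 3 rose and 0 fell in the nuclear AGO1 line, 4 and 2 in AGO2, 5 and 3 in AGO1/2, and 4 and 3 in AGO1/2/3. In the same order 29.9%, 40.2%, 67.6% and 58.6% of all genes were called. The difference between these factors and all genes was not tested. In the AGO1/2/3 line SMG9 (0.43 ± 0.06), which works with the SMG1 kinase, rose. UPF3A (-0.30 ± 0.05), a UPF3 paralog, and SMG5 (-0.37 ± 0.07), which acts on phosphorylated UPF1, fell. SMG8 (0.45 ± 0.10) rose. In the cytoplasm 0 rose and 5 fell in the AGO1/2 line, and 2 rose and 5 fell in the AGO1/2/3 line. Of all genes there, 49.2% and 38.7% were called. Among the factors that fell in the AGO1/2 line was UPF1 (-0.70 ± 0.10), the helicase at the centre of the pathway, which is named after its value was seen.

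The genes whose level followed the mean of the 10 SR genes most closely, over 10 group means centred within each fraction, were POLR1E, a subunit of RNA polymerase I (r = 0.986), NOM1 (r = 0.985), ORC5, a subunit of the origin recognition complex (r = 0.980), MTG2 (r = 0.979) and the transcription factor NRF1 (r = 0.977). Among the SR genes themselves r with this mean ran from -0.0702 for SRSF1 to 0.969 for SRSF7. This mean holds each SR gene itself, so r does not measure likeness to the other members, and SRSF1 had the lowest r with it. The 5 genes named first were the highest of 20104 genes with the SR genes left out, and no r was tested.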

How the data were processed

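Strand-specific libraries were made from total RNA of each fraction after removal of ribosomal RNA, and the submitters' processing notes name STAR 2.5.3a, Salmon 0.11.0 and DESeq2 with hg38. The estimated counts, as deposited, are Salmon's reads per transcript, not normalized. The deposited TPM come from the same Salmon runs and are scaled for effective length and library total. Transcript classes and coordinates came from GENCODE release 44, matched by identifier without version, because the annotation release used by the authors was unclear. Of the 106 SR transcripts 13 differ in length from that release. SRSF2 overlaps MFSD11 and SRSF9 overlaps GATC on the opposite strand, SRSF1 and SRSF6 overlap unnamed protein-coding genes on the same strand, and 11 processed pseudogenes resemble members, so their reads are less certain.

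Counts were rounded and tested with edgeR 4.0.16 under R 4.3.3 (TMM scaling, quasi-likelihood, low counts removed by filterByExpr at a minimum of 10), with 15 libraries of a fraction in 1 fit or all 30 for both fractions. Shares and exon inclusion were tested with limma 3.58.1 (trend) on log2 ratios with 0.1 TPM added, for genes or exons with a mean of at least 1 TPM. Calls needed a Benjamini-Hochberg adjusted p of at most 0.05 over all features, and for exons also 10 percentage points. DESeq2 1.42.0 served as an alternative. Salmon's own assignment error was not modelled. With 3 libraries a group, an exact permutation test cannot go below p = 0.1, and p-values measure only the spread between cultures of 1 line. The methods were tested on simulated data. All 10 members are named, with the most abundant transcript of each class, every poison exon, up to 4 examples per list and the 5 most similar genes. Members and lists were chosen with earlier results of these data known.

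Deviations from the group means correlated between fractions of the same passage at 0.156, 0.148 and 0.402 in wild type, and at -0.0271 to 0.212 in the other lines. Between different wild-type passages they were 0.144 and 0.169 for passages 27 and 28, and -0.241 to -0.263 where passage 29 was 1 of the 2. An alternative treated the fractions of each culture as paired, in every genotype, with culture as a replicate block. Tables were handled in Python 3.11.15 with numpy 2.4.6 and pandas 2.3.3, and in R with the data.table package (version 1.17.8). Figures were drawn with matplotlib 3.10.9.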

Additional observations from a re-analysis of the deposited data

Results flagged for a closer look

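The effect of the AGO1/2/3 knockout differed between nucleus and cytoplasm by a test of that difference (an interaction term) for 6 values. The retained-intron share had log2 differences, nuclear minus cytoplasmic effect, of -1.25 for SRSF5 (adjusted p = 9.3e-04, limma), -1.35 for SRSF7 (adjusted p = 0.015) and -1.17 for SRSF9 (adjusted p = 0.0019). The NMD share had -1.12 for SRSF7 (adjusted p = 0.0052, limma). Expression had -0.39 for SRSF5 (adjusted p = 0.023, edgeR) and 0.42 for SRSF6 (adjusted p = 0.0080). In the nucleus these shares fell in all 3 AGO1/2/3 libraries below every wild-type library. The calls were 3 of 9 genes for the retained-intron share, beside 40.8% of all genes. They were 1 of 10 for the NMD share, beside 5.16%, and 2 of 10 for expression, beside 22.7%. The NMD share call was lost with the groups compared fitted alone.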

How the results depend on the processing

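Counts of calls were recomputed under each alternative. Without 1 library at a time they ran, for genes, from 15 to 21 in the nucleus (18 with all libraries), from 2 to 14 in the cytoplasm (4), from 6 to 8 between fractions (7) and from 1 to 3 for the interaction (2). For transcripts the ranges were 103 to 120 (118) and 6 to 22 (9). NMD shares gave 2 to 4 (3), 0 to 0 (0), 6 to 7 (6) and 1 to 1 (1), retained-intron shares 13 to 15 (14), 0 to 2 (2), 8 to 9 (9) and 3 to 4 (3), and poison exons 0 to 1 and 0 to 0. The 1 poison exon call came without the nuclear wild-type library of passage 27 or of 28. The 22 transcripts came without the cytoplasmic wild-type library of passage 29, and the interaction of gene levels fell to 1 without the cytoplasmic AGO1/2/3 library of passage 11 or 12 or the nuclear wild-type library of passage 28.

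With limma on log2(TPM + 1) or log2(TPM + 0.1), 16 and 16 cytoplasmic genes and 34 and 33 cytoplasmic transcripts were called (22 by DESeq2), and 1 interaction of gene levels on the second scale. On log2(TPM + 0.1) the median of all genes moved to as far as -0.25 in the nucleus, -0.36 in the cytoplasm and 0.58 between fractions. On log2(TPM + 1) the share of called genes that were higher was 5.90%, 9.71%, 42.7% and 26.5% in the nucleus for the AGO1, AGO2, AGO1/2 and then AGO1/2/3 lines (47.8%, 50.3%, 48.7% and 49.7% on counts), 7.34%, 5.99%, 13.4% and 17.7% in the cytoplasm (34.5% to 48.5%), and 75.2% between fractions (51.5%). It reversed SRSF9 in the nuclear AGO1 (-0.0724 and -0.0731), AGO2 (-0.0458 and -0.0463) and AGO1/2/3 lines (-0.0442 and -0.0446), SRSF6 in the AGO1/2/3 line (-0.0308 and -0.0311) and between fractions (0.00208 and 0.00215), and the transcripts SRSF6-202 (-0.0551 and -0.0562) and SRSF6-201 (-0.0108 and -0.0109) in the AGO1/2/3 line. With only the groups compared, 73 nuclear transcripts, 1 nuclear NMD share, 1 cytoplasmic retained-intron share, 1 interaction of gene levels and 0 of NMD shares were called. A pseudocount of 1 TPM gave 6 nuclear and 8 cytoplasmic NMD shares, 6 cytoplasmic retained-intron shares, and interactions of 3 NMD and 5 retained-intron shares. A pseudocount of 0.01 TPM, a minimum of 5 TPM, estimated reads in place of TPM, or a change of at least 5 points each gave 0 cytoplasmic retained-intron shares. The last left 3 NMD shares between fractions. With no minimum TPM there were 1 cytoplasmic retained-intron and 1 cytoplasmic NMD share. Against coding transcripts alone there were 7 nuclear NMD shares and interactions of 2 NMD and 5 retained-intron shares. Without the minimum change 5 nuclear poison exons were called. The cause of these differences was not tested.

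With culture as a replicate block, 8 genes and 7 NMD shares were called between fractions, and 5 genes in the interaction, where passages of the AGO1/2/3 line did not pair (correlations of -0.0236, 0.0377 and 0.0351). The block moved no other count of calls by over 1.5 times. Of 888 recomputed values of named genes and transcripts 750 kept their call, 124 lost it and 14 reversed; without 1 library, 1694 of 1821 kept it, 127 lost it and 0 reversed. Count tools, size factors and count filters were not run on shares and exons, which are ratios of TPM.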
